A study of Mus musculus with 10 samples.

Results

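A set of 10 genes known for axon regeneration was followed in mouse brain after controlled cortical impact, a brain injury model in which a driven tip compresses the cortex on one side. The genes were Sox11, Jun, Atf3, Klf6, Klf7, Gap43, Basp1, Stmn2, Sprr1a and Ecel1. They were taken by symbol, and each was read from the brightest row of the deposited log2 array signals that named it alone. All 10 had such a row, and each had only 1, among 30142 genes tested in all. The arrays held 5 samples of tissue ipsilateral to the impact and 5 of the corresponding region contralateral to it, taken 7 days after an impact of 2 mm. The labels describe adult male and female mice of 8 to 12 weeks. The strain was not given in the sources used here. Every mouse had been impacted, so the contralateral tissue comes from the side that was not struck in injured animals, and no sham-operated mice were among the samples. The labels call the samples biological replicates without saying which ipsilateral and contralateral samples came from one mouse. The precision of every comparison is limited by the number of arrays.

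After an axon is cut, a neuron that can regrow it switches on a growth program that resembles the one used in development. Transcription factors such as Jun, Atf3, Sox11 and members of the Krüppel-like family act early in that program. They are followed by proteins of the growth cone and the cytoskeleton, among them GAP-43, BASP1 and the stathmins, and by strongly induced injury genes such as Sprr1a and Ecel1. The program is known mainly from peripheral neurons, which regrow their axons, whereas neurons of the adult brain and spinal cord mount it weakly or in part.

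The promoters of Sox11 and Jun are shown because these were the members that passed the test between sides. Sequences are RefSeq's, on GRCm38.p6, and hold the 250 bases before the annotated start, read 5′ to 3′ on the gene's strand. Of the 10 members, 8 matched the promoter table by symbol, and Gap43 and Stmn2 did not. Capitals mark matches to TGACNTCA, the kind of site that dimers of Jun and ATF proteins bind, and to TGANTCA, the AP-1 site. Both strands were searched, and no match of one motif overlapped a match of the other.
Sox11, chr12:27342719-27342968, minus strand: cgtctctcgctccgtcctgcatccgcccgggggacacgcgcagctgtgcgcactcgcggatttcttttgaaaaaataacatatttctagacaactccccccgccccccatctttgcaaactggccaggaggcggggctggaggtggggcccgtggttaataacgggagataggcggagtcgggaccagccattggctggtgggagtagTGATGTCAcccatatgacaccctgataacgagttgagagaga
Jun, chr4:95052223-95052472, minus strand: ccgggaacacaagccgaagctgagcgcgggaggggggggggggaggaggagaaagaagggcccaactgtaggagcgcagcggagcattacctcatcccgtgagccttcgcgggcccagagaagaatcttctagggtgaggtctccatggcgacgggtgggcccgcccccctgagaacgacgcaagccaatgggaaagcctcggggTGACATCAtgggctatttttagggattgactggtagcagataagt
Jun held TGACATCA 45 to 38 bases before its start. Sox11 held the same letters on the other strand, 42 to 35 bases before its start. Klf6 and Sprr1a also held TGACATCA, and the stretches around their matches are shown for comparison.
Klf6, chr13:5861350-5861397, plus strand: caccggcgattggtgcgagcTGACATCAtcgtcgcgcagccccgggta
Sprr1a, chr3:92485982-92486101, minus strand: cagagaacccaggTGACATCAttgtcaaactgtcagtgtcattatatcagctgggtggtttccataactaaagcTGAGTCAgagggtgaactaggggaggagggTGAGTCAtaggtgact
In Klf6 the match lay 119 to 112 bases before the start and in Sprr1a 207 to 200 bases before it. Sprr1a further held TGAGTCA, an AP-1 match, at 146 to 140 and at 116 to 110 bases before the start. TGACNTCA was thus present in 4 of the 8 members with a promoter, and in 7.49% of all 32851 promoter windows of the same length. TGANTCA was present in 1 of the 8, and in 6.75% of all windows. These matches are letters in a window and do not show binding.

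Of the 10 genes, 2 rose and none fell at an adjusted p under 0.05 in limma, a linear model fitted gene by gene with shared estimates of the spread. Here and below, a gene that rose or fell was higher or lower in ipsilateral than in contralateral tissue. Over all 30142 genes, 1.22% rose and 4.33% fell, which is 369 and 1305 genes and 5.55% together. The split of calls depended on scaling, with 225 higher and 2130 lower when arrays were centred on their medians and 464 higher and 970 lower with cyclic loess. The members had a median log2 difference of 0.38 between sides, and all genes had one of 0.02. At an unadjusted p under 0.05, 6 members were higher and 1 was lower, and over all genes 10% were higher and 11.3% lower, 21.3% together. The transcription factor Sox11 was the only member whose sides did not overlap, and over all genes 2.04% stood higher on every ipsilateral array than on any contralateral one, 5.21% stood lower on every one, and 7.25% did either. In bulk tissue, fewer cells of a type and less RNA per cell cannot be told apart.

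**Figure D1:**
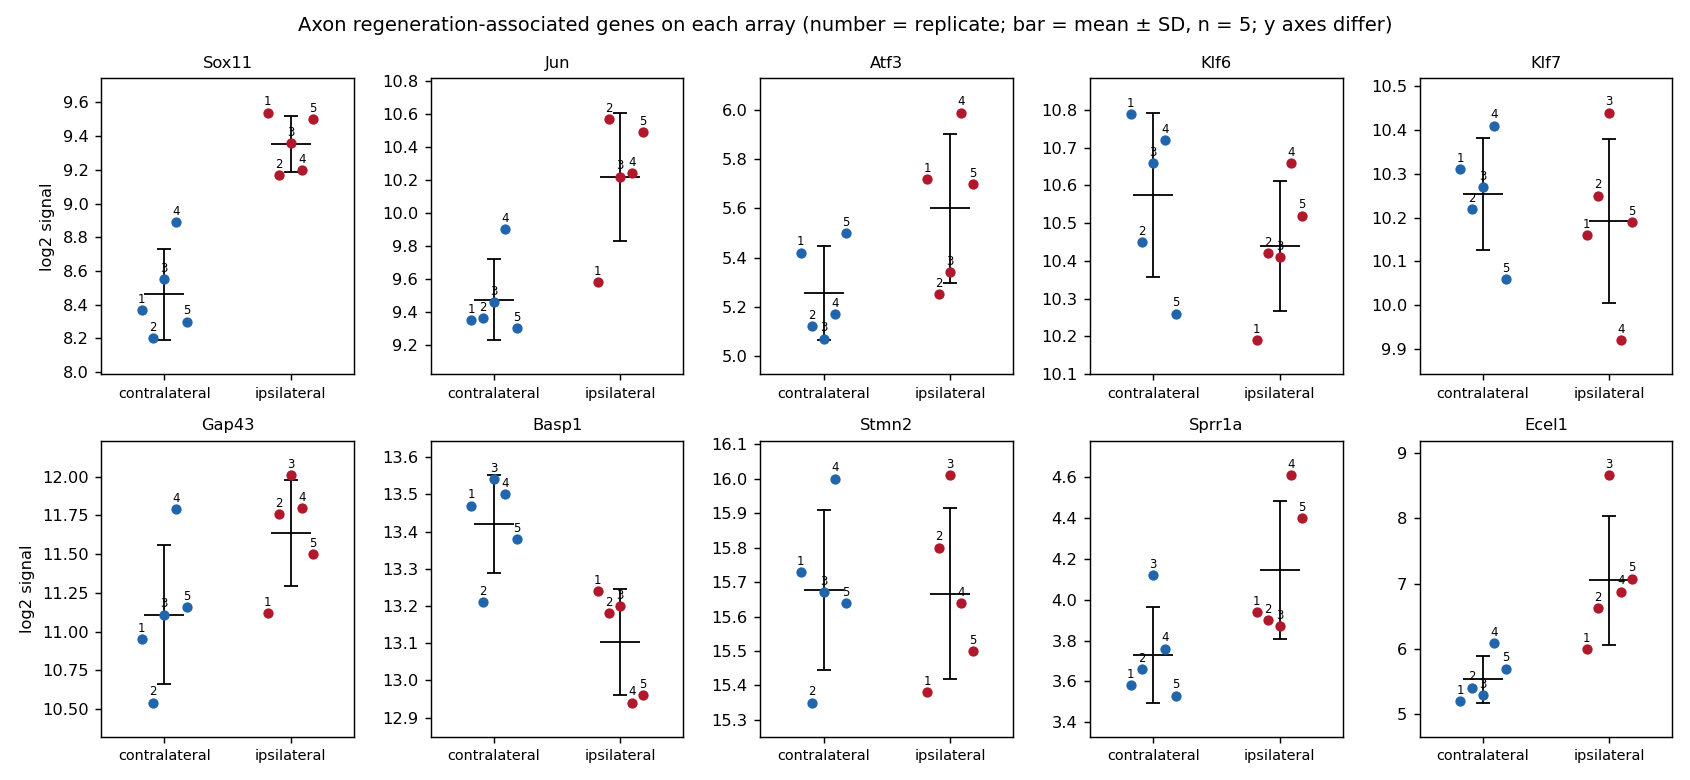
Log2 signal of each of the 10 genes (y axis, scaled per panel) on the 5 contralateral arrays in blue and the 5 ipsilateral arrays in red. Numbers give the replicate, and horizontal and vertical bars the mean and SD. Sox11 shows no overlap between sides, the Jun overlap comes from ipsilateral array 1 and contralateral array 4, and Klf6, Klf7 and Stmn2 overlap widely.

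Some arrays stood apart in cell type and regional markers, and the members are read beside them. All 10 neuroblast markers, such as doublecortin (Dcx), were highest on ipsilateral array 1, where the list averaged 8.88 against 6.84 to 7.04 on the other ipsilateral arrays and 6.69 to 6.78 contralaterally. Of 13 striatal and ventral forebrain markers, 11 were highest on ipsilateral array 3. That list averaged 8.63 on this array, 7.58 to 7.74 on the other ipsilateral arrays and 6.77 to 7.35 on the contralateral ones, with contralateral array 4 the highest of these. All 13 of its genes had a positive difference, and 3 rose. They were Nnat (2.57, adjusted p = 0.00901), Hap1 (1.91, adjusted p = 0.0164) and Dlk1 (0.70, adjusted p = 0.0353). Hap1 lost its call without contralateral array 1 (adjusted p = 0.0509), and Dlk1 in 6 of the 10 fits with 1 array left out. The 13 neocortical layer markers averaged 10.22 to 10.49 ipsilaterally and 10.84 to 10.99 contralaterally, so the sides also differed in regional markers. Of these genes, 10 had a negative difference and 3 a positive one, and 5 fell and 1 rose. Tbr1 (-1.09, adjusted p = 0.00152), Cux2 (-0.77, adjusted p = 0.00197) and Lamp5 (-2.24, adjusted p = 0.00238) had the strongest test statistics. The gene that rose was Bcl11b (0.86, adjusted p = 0.0106), named after its value was seen. Contralateral array 4 had the lowest oligodendrocyte marker average of its side, 10.36 against 11.51 to 11.88. The microglia and macrophage markers averaged 8.84 to 11.17 ipsilaterally and 8.31 to 9.21 contralaterally. They were highest on ipsilateral arrays 4 and 5, at 11.17 and 10.88. Ipsilateral arrays 2 and 3, at 9.40 and 9.48, were also above every contralateral array. All 8 genes of this list had a positive difference, with a median of 1.00, and none passed. General neuronal markers averaged 12.79 to 13.19 ipsilaterally and 13.02 to 13.25 contralaterally, and these overlapped. Of the 7 neuronal genes, 6 had a negative difference and 1 fell, the nuclear marker Rbfox3 (-0.54, adjusted p = 0.0102). The fibroblast list averaged 7.09 to 8.57 ipsilaterally and 6.24 to 6.88 contralaterally, with no overlap. All 5 of its genes had a positive difference, and Dcn (2.88, adjusted p = 0.0250) and Col1a1 (0.80, adjusted p = 0.0398) rose. Dcn lost its call in 6 and Col1a1 in 7 of the 10 fits with 1 array left out, with adjusted p up to 0.0672 and 0.0963. The astrocyte list averaged 9.39 to 10.49 ipsilaterally and 9.09 to 9.51 contralaterally, with 5 of 6 genes positive and 1 that rose, the water channel gene Aqp4 (0.95, adjusted p = 0.0117). The part of these lists in the differences of the 10 genes was not tested.

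**Figure D2:**
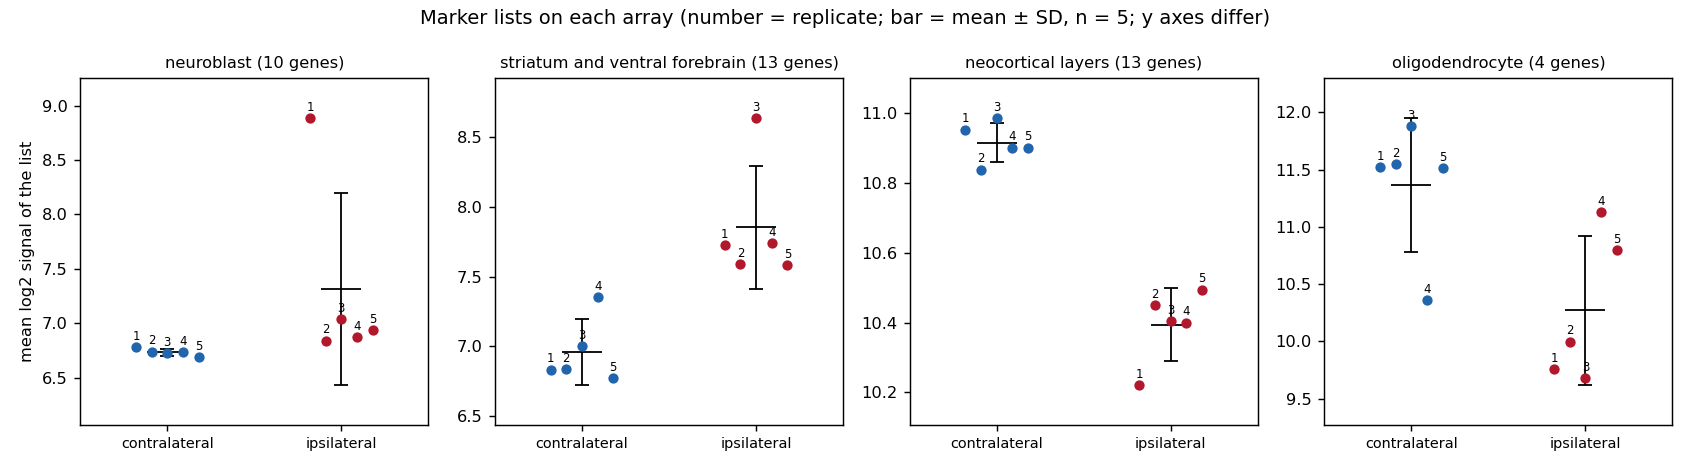
Mean log2 signal of 4 marker lists (y axis, scaled per panel) on each contralateral (blue) and ipsilateral (red) array, with replicate numbers and mean ± SD. Ipsilateral array 1 stands at 8.88 in the neuroblast list and ipsilateral array 3 at 8.63 in the striatal and ventral forebrain list, and contralateral array 4 is at 10.36 in the oligodendrocyte list.

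Sox11 encodes a transcription factor of developing neurons that is needed for neurite growth and is induced again in regenerating sensory neurons. Its log2 signal on ipsilateral arrays 1 to 5 was 9.54, 9.17, 9.36, 9.20 and 9.50, and on contralateral arrays 1 to 5 it was 8.37, 8.20, 8.55, 8.89 and 8.30. Every ipsilateral array was above every contralateral array. Sox11 rose by 0.89 ± 0.13 (SE, n = 5 per side; adjusted p = 0.00366 in limma), a 1.86-fold difference with a 95% interval of 1.52 to 2.27. The exact two-sided permutation test gave p = 0.00794, the smallest that splitting 10 arrays into sides of 5 allows. Ipsilateral array 1, which carried the neuroblast markers, was the highest for Sox11, and the other 4 ipsilateral arrays stood at 9.17 to 9.50. Without ipsilateral array 1 the difference was 0.85 ± 0.14 (adjusted p = 0.00645 in limma). Contralateral array 4, the highest of its side for Sox11, was also the highest of its side in the striatal and ventral forebrain markers. That list averaged 7.58 to 8.63 ipsilaterally and 6.77 to 7.35 contralaterally, so its sides did not overlap either. The neocortical layer list did not overlap between sides, with the ipsilateral side lower. The part of the neuroblast and regional markers in the Sox11 difference was not tested. The call held in each of the 10 fits that left out 1 array, with adjusted p from 0.000797 to 0.0150.

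Over all 10 arrays, the genes most like Sox11 were Sgcd, which encodes a sarcoglycan, the neuronal seizure-related gene Sez6, and Gdf11, a secreted growth and differentiation factor. Their Pearson r with Sox11 was 0.984, 0.973 and 0.969, the highest among 13499 genes brighter on average than every array's median. The r values describe 10 points that share the same arrays and the same side difference. Sgcd, Sez6 and Gdf11 also passed the test, with log2 differences of 0.56, 0.57 and 0.43.

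Jun encodes the AP-1 subunit c-Jun, which neurons switch on after axotomy and need for efficient regrowth. It stood at 9.58, 10.57, 10.22, 10.24 and 10.49 on ipsilateral arrays 1 to 5 and at 9.35, 9.36, 9.46, 9.90 and 9.30 on contralateral arrays 1 to 5. Of the ipsilateral arrays, 4 were above every contralateral one, and array 1, the lowest, lay within the contralateral range. Jun rose by 0.75 ± 0.18 (adjusted p = 0.0407 in limma; exact two-sided permutation p = 0.0159), a 1.68-fold difference with a 95% interval of 1.27 to 2.22. The call was close to the threshold. It was kept without ipsilateral array 1 (0.91, adjusted p = 0.00419) or contralateral array 4 (adjusted p = 0.0229). It was lost without any of the other 8 arrays, with adjusted p from 0.0690 without ipsilateral array 3 to 0.103 without contralateral array 1. It was also lost when arrays were centred on their medians (adjusted p = 0.0509). Ipsilateral array 1 was also the lowest of its side in the microglia and macrophage (8.84), astrocyte (9.39) and fibroblast (7.09) averages. Contralateral array 4, the highest of its side for Jun, was the highest of its side in the striatal and ventral forebrain average (7.35). It was the lowest in the oligodendrocyte (10.36) and astrocyte (9.09) averages. The part of these markers in the Jun difference was not tested.

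Over the same 10 arrays and 13499 genes, the array profile of Jun was most like that of Adamts9, an ADAMTS family metalloprotease (Pearson r = 0.974). Next came Itgbl1, an integrin beta-like protein (0.973), and Pls3, the actin-bundling protein plastin 3 (0.970). Adamts9 and Pls3 rose, by 0.58 and 0.60, and Itgbl1 had a log2 difference of 0.39 that did not pass (adjusted p = 0.0918 in limma). These arrays share their side difference, and r is given as a description.

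Atf3 encodes an ATF/CREB family factor that is nearly silent in intact neurons and a standard marker of axotomised ones. Its signal was dim, at 5.72, 5.25, 5.34, 5.99 and 5.70 on ipsilateral arrays 1 to 5 and 5.42, 5.12, 5.07, 5.17 and 5.50 on contralateral arrays 1 to 5. The sides overlapped, with 3 ipsilateral arrays above all contralateral ones. The difference was 0.34 (95% interval 0.02 to 0.66), and it did not pass (adjusted p = 0.203 in limma; exact two-sided permutation p = 0.0714). Atf3 was highest on ipsilateral array 4, which also had the highest microglia and macrophage average, and the part of these markers in the Atf3 values was not tested.

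Klf6 and Klf7 encode the Krüppel-like factors that promote axon growth, in contrast to relatives such as Klf4 and Klf9 that restrain it. Klf6 stood at 10.19, 10.42, 10.41, 10.66 and 10.52 ipsilaterally and at 10.79, 10.45, 10.66, 10.72 and 10.26 contralaterally, in the order of the replicate numbers. Klf7 stood at 10.16, 10.25, 10.44, 9.92 and 10.19 ipsilaterally and at 10.31, 10.22, 10.27, 10.41 and 10.06 contralaterally. Both genes overlapped widely between sides. The log2 difference of Klf6 was -0.14 (95% interval -0.39 to 0.12) and that of Klf7 was -0.06 (-0.28 to 0.15), with adjusted p of 0.551 and 0.776 in limma. As a ratio of ipsilateral to contralateral signal, the 95% interval was 0.763 to 1.09 for Klf6 and 0.825 to 1.11 for Klf7. The sign for Klf7 turned with cyclic loess scaling and without ipsilateral array 4, so no direction is given.

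**Figure D3:**
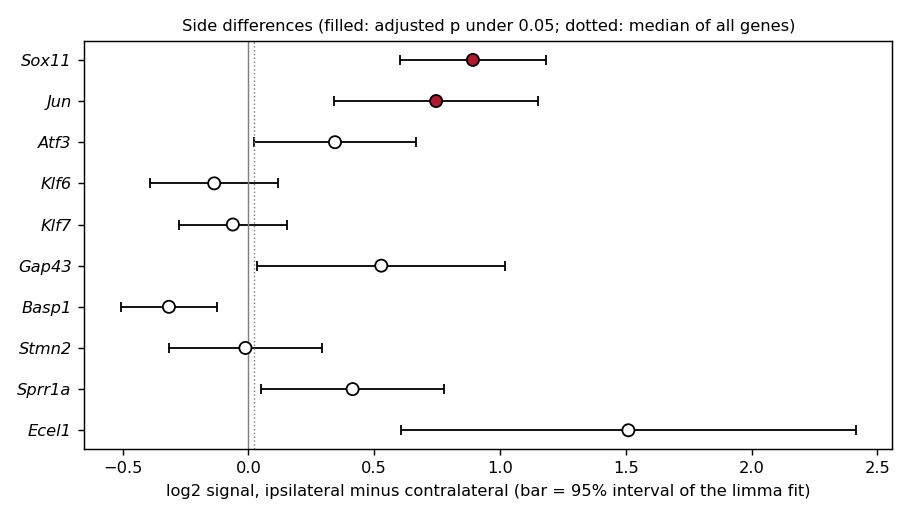
Difference in log2 signal between sides (x axis, ipsilateral minus contralateral) for the 10 genes, with the 95% interval of the limma fit. Filled points mark Sox11 and Jun, the 2 genes with an adjusted p under 0.05, and the dotted line marks the median of all genes at 0.02. Ecel1 has the largest difference and the widest interval.

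Gap43 encodes the growth cone protein GAP-43, which binds calmodulin, is phosphorylated by protein kinase C, and marks sprouting axons. Its signal on ipsilateral arrays 1 to 5 was 11.12, 11.76, 12.01, 11.80 and 11.50, and on contralateral arrays 1 to 5 it was 10.95, 10.54, 11.11, 11.79 and 11.16. Contralateral array 4 lay among the highest ipsilateral arrays, and the sides overlapped. The difference was 0.53 ± 0.22 (95% interval 0.03 to 1.02) and did not pass (adjusted p = 0.204 in limma; exact two-sided permutation p = 0.0873). Without contralateral array 4 it was 0.70 (adjusted p = 0.0658), and without ipsilateral array 1 it was 0.66 (adjusted p = 0.0970). Gap43, Ecel1, Stmn2 and Klf7 were each highest on ipsilateral array 3 and on contralateral array 4 of their sides. These 2 arrays were also the highest of their sides in the striatal and ventral forebrain markers, and the part of these markers in the Gap43 difference was not tested.

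Basp1 encodes BASP1 (CAP-23), a myristoylated membrane protein of nerve endings that works together with GAP-43 on the actin cytoskeleton. It stood at 13.24, 13.18, 13.20, 12.94 and 12.96 on ipsilateral arrays 1 to 5 and at 13.47, 13.21, 13.54, 13.50 and 13.38 on contralateral arrays 1 to 5. The 4 ipsilateral arrays numbered 2 to 5 were below every contralateral array, and array 1 overlapped the lowest of these. The log2 difference was -0.32 ± 0.09 (95% interval -0.51 to -0.13), the opposite sign to that of Gap43, and it did not pass (adjusted p = 0.0607 in limma; exact two-sided permutation p = 0.0159). It passed without ipsilateral array 1 (adjusted p = 0.0429) or contralateral array 2 (0.0367), and with median centring (0.0403) but not with quantile scaling (0.153).

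Stmn2 encodes stathmin 2, also known as SCG10, a neuron-specific protein that destabilises microtubules in growth cones and is an early marker of regenerating sensory axons. Its signal was 15.38, 15.80, 16.01, 15.64 and 15.50 on ipsilateral arrays 1 to 5 and 15.73, 15.35, 15.67, 16.00 and 15.64 on contralateral arrays 1 to 5. The ranges of both sides were nearly the same. The log2 difference was -0.01 (95% interval -0.32 to 0.29; adjusted p = 0.975 in limma), which as a ratio of ipsilateral to contralateral signal is an interval of 0.803 to 1.23. Its sign turned in 4 of the 10 fits that left out 1 array.

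Sprr1a encodes a small proline-rich protein that is best known from the outer layer of skin and that regrowing sensory axons express strongly. It stood at 3.94, 3.90, 3.87, 4.61 and 4.40 on ipsilateral arrays 1 to 5 and at 3.58, 3.66, 4.12, 3.76 and 3.53 on contralateral arrays 1 to 5. All 10 values lay below the median signal of their own array, where signal above background was not shown. The difference was 0.41 (95% interval 0.05 to 0.78) and did not pass (adjusted p = 0.179 in limma; exact two-sided permutation p = 0.0635). Ipsilateral arrays 4 and 5 were the highest and contralateral array 3 came next. A list of 5 keratinocyte genes, tissue in which Sprr1a is abundant, averaged 4.78 to 4.90 ipsilaterally and 4.70 to 4.92 contralaterally.

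Ecel1 encodes a neuronal endopeptidase-like enzyme, also called DINE, that is induced by nerve injury and needed for axon branching in development. Its signal was 6.0, 6.63, 8.66, 6.88 and 7.08 on ipsilateral arrays 1 to 5 and 5.20, 5.41, 5.30, 6.09 and 5.70 on contralateral arrays 1 to 5. Only ipsilateral array 1 fell inside the contralateral range, and ipsilateral array 3 was far above the rest. The difference was the largest of the 10 genes, 1.51 ± 0.41 or 2.85-fold (95% interval 1.52 to 5.33), and it did not pass (adjusted p = 0.0593 in limma; exact two-sided permutation p = 0.0159). It passed without ipsilateral array 1 (1.77, adjusted p = 0.0215) or array 3 (1.11, adjusted p = 0.0299), with array weights (0.0286) and with the dimmest 25% (0.0492) or 50% (0.0381) of genes left out. Without both of these arrays, a setting chosen after seeing the data, it was 1.32 ± 0.20 (adjusted p = 0.00711). Ipsilateral array 3 also had the highest striatal and ventral forebrain average, 8.63, and the other ipsilateral arrays, at 7.58 to 7.74, were also above every contralateral array in it. The part of these markers in the Ecel1 difference was not tested.

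**Figure D4:**
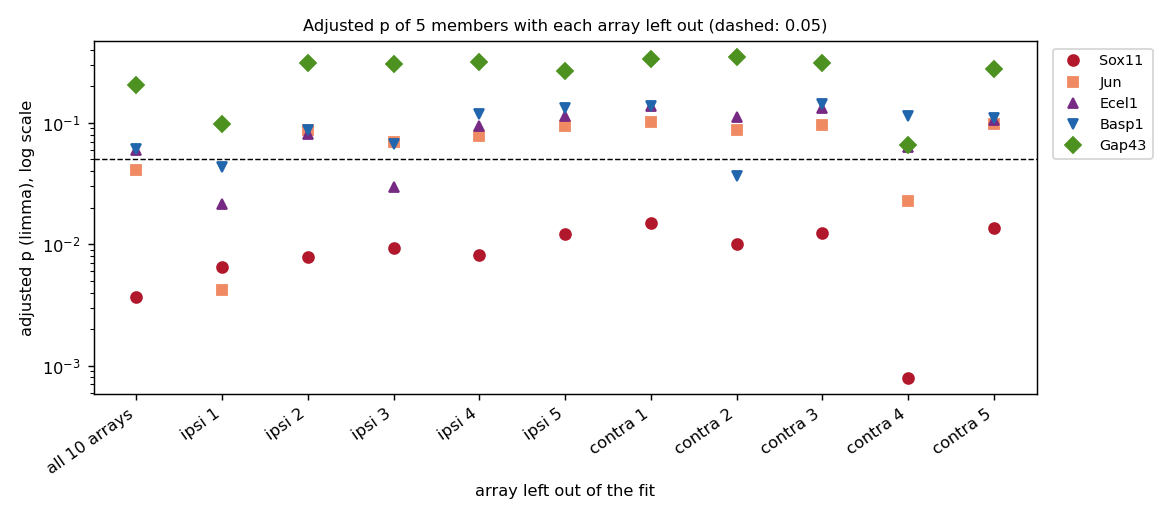
Adjusted p of Sox11, Jun, Ecel1, Basp1 and Gap43 (y axis, log scale) in the fit to all 10 arrays and with each array left out (x axis). The dashed line is at 0.05. Sox11 stays below it throughout, Jun is below it in the fit to all arrays and without ipsilateral array 1 or contralateral array 4, and Gap43 stays above it.

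The wider growth program was read from 5 further lists with 106 genes, of which 102 had a row of their own. Of these, 6 rose and 17 fell, where 1.22% of all genes rose and 4.33% fell, and the median log2 difference was 0.06. The 19 measured transcription factors of growth and injury had 5 members that fell and none that rose, with a median of 0.06. Those that fell were Crem, a cAMP-responsive factor (-0.40, adjusted p = 0.00841), Xbp1 of the unfolded protein response (-0.40, 0.00886), and 3 partners or relatives of Jun. These were Jdp2, a Jun dimerisation protein (-0.40, 0.00913), Fosl2 (-0.56, 0.0159) and Jund (-0.32, 0.0416). Jund lost its call in 8 of the 10 fits with 1 array left out, with adjusted p up to 0.0965. It also lost it with quantile (0.0829) and cyclic loess scaling (0.0995). In none of these 5 genes did the sides overlap, but they were picked by the side test on the same arrays. Over all genes, 5.21% stood lower on every ipsilateral array than on any contralateral one. Of the 19 factors, 1 stood higher on every ipsilateral array and did not pass.

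Among the other 15 Krüppel-like factors, 3 fell and none rose (4.33% and 1.22% of all genes), and the median log2 difference was -0.04. Klf9, a hormone-responsive factor that restrains axon growth, stood at 12.82 ± 0.16 ipsilaterally and 13.87 ± 0.18 contralaterally (SD, n = 5), with no overlap. It fell by 1.05 ± 0.10 (adjusted p = 0.000837 in limma), and the call held with each array left out. Klf10, a factor induced by TGF-beta, fell by 0.73 ± 0.14 (adjusted p = 0.0139), and Klf13 fell by 0.38 ± 0.08 (adjusted p = 0.0267). Klf13 lost its call without ipsilateral array 4 or 5 or contralateral array 2, 3 or 4 (adjusted p up to 0.0610) and with cyclic loess scaling (0.0551). The growth-restraining Klf4 had a difference of -0.25 that did not pass (adjusted p = 0.110, named after its value was seen). Klf6 and Klf7, the growth-promoting relatives, had the differences of -0.14 and -0.06 given above.

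The 23 genes of the growth cone and cytoskeleton moved in both directions, with 5 higher and 5 lower (1.22% and 4.33% of all genes). Their median log2 difference was 0.14. Of the 10 that passed, Nefh, Nefm and Stmn4 had the strongest test statistics, and the other 7 are named after their values were seen. All 3 neurofilament subunits, the filaments of mature axons, fell: Nefh by 0.96 ± 0.13, Nefm by 1.00 ± 0.16 and Nefl by 0.89 ± 0.18. The neuronal marker Rbfox3 also fell, and its part in these differences was not tested. Of the 3, only Nefl lost its call when an array was left out (contralateral array 1, adjusted p = 0.0521). The stathmins Stmn1 and Stmn4 fell by 0.48 ± 0.10 and 0.48 ± 0.08. Stmn2 differed by -0.01 and Stmn3, named after its value was seen, by -0.17, both without passing. The Stmn1 call was lost without contralateral array 1, 3 or 5 (adjusted p up to 0.0561).

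The growth cone genes that rose are expressed strongly in developing neurons. They were the tubulins Tubb2a (0.70 ± 0.13) and Tubb2b (0.67 ± 0.14), the collapsin response mediators Dpysl3 (0.72 ± 0.13) and Dpysl5 (0.70 ± 0.16), and Marcks, an actin-binding substrate of protein kinase C related in function to GAP-43 (0.56 ± 0.11). Tubb2a and Tubb2b are near-identical in sequence, and whether their probes read both was not tested. Tubb2a did not pass with quantile scaling (adjusted p = 0.129), and Tubb2b did not without contralateral array 1 or 3 (adjusted p up to 0.0553). Marcks did not pass without ipsilateral arrays 1 and 3 (adjusted p = 0.0519). Dpysl5 lost its call in 7 of 10 fits with 1 array left out (adjusted p up to 0.0925) and with median centring (0.0521). Dpysl3 and Dpysl5 were highest on ipsilateral array 1, at 10.11 and 8.57, the array with the neuroblast markers. Without it they had differences of 0.63 (adjusted p = 0.0122) and 0.55 (adjusted p = 0.0194). Dcx itself, 11.20 on that array and 7.62 to 8.35 on the other ipsilateral arrays, did not pass (0.44, adjusted p = 0.722). Without that array its difference was -0.21, with the contralateral arrays at 8.01 to 8.27. Over all 10 arrays, all 10 neuroblast markers had a positive difference and 1 passed, Cd24a (1.27, adjusted p = 0.00756). Cd24a also passed without ipsilateral array 1 (1.07, adjusted p = 0.00270), and its sides did not overlap.

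**Figure D5:**
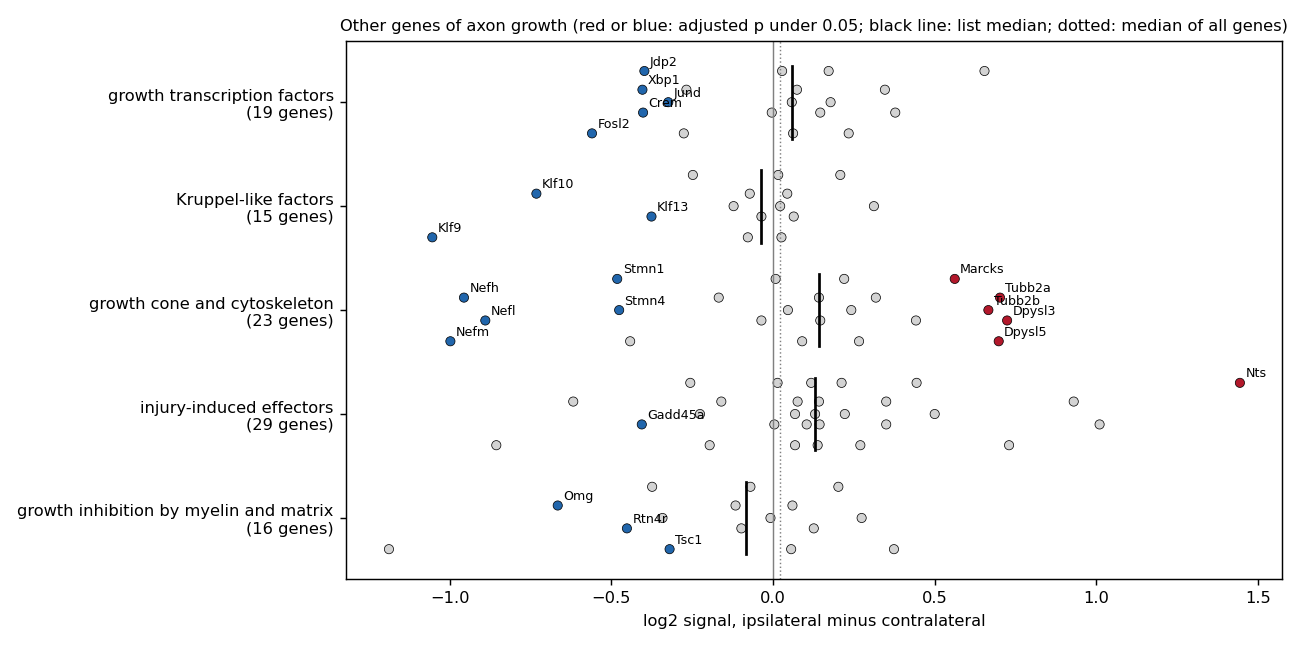
Log2 difference between sides (x axis, ipsilateral minus contralateral) of the measured genes of 5 lists of axon growth (rows; vertical position within a row has no meaning). Red and blue points passed the test upward and downward, black lines are list medians and the dotted line is the median of all genes. The neurofilaments and Klf9 lie farthest to the left among called genes, and Nts farthest to the right.

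Of 29 measured effectors that injured neurons are known to induce, 1 rose and 1 fell, where 1.22% of all genes rose and 4.33% fell. The median log2 difference of the list was 0.13. The neuropeptide gene Nts, encoding neurotensin, stood at 7.73 ± 0.75 against 6.29 ± 0.36 and rose by 1.44 ± 0.32 (adjusted p = 0.0278 in limma). Its call was lost without ipsilateral array 3, 4 or 5 or contralateral array 1, 2 or 5 (adjusted p up to 0.0766). The stress gene Gadd45a fell by 0.41 ± 0.08 (adjusted p = 0.0186), and its call was lost without contralateral array 1 or 5 (adjusted p up to 0.0570). Other classical injury genes did not pass. Examples are the neuropeptide gene Gal (0.13, 95% interval -0.22 to 0.48) and the small heat shock protein gene Hspb1 (0.14, -0.09 to 0.37). Both were named after their values were seen, and their small differences do not stand for the list. Of the 29 effectors, 22 had a positive difference and 7 a negative one. At an unadjusted p under 0.05 in limma, 7 were higher and 5 lower, with Nts and Gadd45a among them. Gal was below the median of its own array on 9 of 10 arrays. It stood at 5.10 on contralateral array 4 and 4.19 to 4.37 on the other contralateral arrays, and without array 4 it had a difference of 0.30 that passed (adjusted p = 0.0303). The count of effectors that rose was 6 without ipsilateral array 1. In that fit 760 of all 30142 genes rose, against 369 with all 10 arrays.

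Of 16 genes of growth inhibition by myelin, matrix and intracellular brakes, 3 fell and none rose (4.33% and 1.22% of all genes). Their median log2 difference was -0.08. Rtn4r, the Nogo receptor that halts growth cones on myelin, stood at 6.24 ± 0.12 against 6.69 ± 0.12 and fell by 0.45 ± 0.08 (adjusted p = 0.00901 in limma). One of its ligands, the oligodendrocyte myelin glycoprotein Omg, fell by 0.67 ± 0.12 (adjusted p = 0.00998). Both calls held with each array left out. Tsc1, which restrains growth through mTOR, fell by 0.32 ± 0.06 (adjusted p = 0.0164), with adjusted p up to 0.0512 without contralateral array 1 or 3. The other main Nogo receptor ligands on the list, Rtn4 (-0.37, adjusted p = 0.0692) and Mag (-1.19, adjusted p = 0.0814), named after their values were seen, did not pass. The 4 oligodendrocyte markers averaged 9.68 to 11.13 ipsilaterally and 10.36 to 11.88 contralaterally, and their part in these differences was not tested.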

How the data were processed

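The authors made the deposited log2 signals, 1 column per array, in which the submitters' processing notes name Transcriptome Analysis Console 4.0. The sources used here do not state the background correction, normalization, summarization or build, and base 2 was read from the values (1.97 to 19.93). Of 65956 rows, 30604 named 1 gene, and the brightest row per gene left 30142 genes. Rows naming several genes were left out. The side difference was fitted to all genes on all 10 arrays with limma 3.58.1 (R 4.3.3; lmFit and eBayes, no covariates), with Benjamini-Hochberg adjustment over all genes and two-sided tests, and every adjusted p is from this fit unless a setting is named. A gene was called at an adjusted p under 0.05. Values are means ± SD, and differences ± SE. Exact permutation tests used every split of the arrays into sides of 5. The steps were tested on simulated data.

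The members and lists were chosen with earlier results of these data known, so they are not independent evidence. Named genes were all members, the called genes of each list where 5 or fewer and otherwise the 3 with the strongest statistics. The 3 genes most correlated with each called member, among the genes compared, were also named. Others are marked as named after their values were seen, and Dcx was named to identify the neuroblast markers. Alternatives were a replicate block, 3 scalings, 2 filters on dim genes, other variance models, array weights, row means, a stricter threshold (0.01) and fits that left out 1 array in turn. Of 5 equal-numbered pairs, 2 correlated above 0.1 over all genes (range -0.40 to 0.26). These 5 values are few and include arrays that stood apart, so they cannot show whether equal numbers mark one mouse. The labels give no pairs, so the main fit did not use the numbers as pairs. No batch was given in the labels. Some listed genes and markers were not analysed here.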

Additional observations from a re-analysis of the deposited data

Results flagged for a closer look

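A test for single outlying arrays, applied to each side of the 10 genes and the 15 lists (50 groups of 5 arrays), marked 4 values, where chance marks about 1 in 20. Ipsilateral array 1 stood at 8.88 in the mean of the neuroblast list, with the next ipsilateral array at 7.04. Ipsilateral array 3 stood at 8.63 in the mean of the striatal and ventral forebrain list, with the next at 7.74. Contralateral array 4 stood at 10.36 in the mean of the oligodendrocyte list, with the next at 11.51, and at 9.90 for Jun, with the next at 9.46. No explanation of these values was tested.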

How the results depend on the processing

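Sox11 kept its direction and its call in all 20 alternatives run, and Atf3, Klf6, Gap43 and Sprr1a kept their direction and did not pass in any in which they were tested (the filters removed Sprr1a, and the stricter one Atf3). Over the members and the called list genes, 577 of 657 comparisons kept direction and call, 61 lost the call, 13 gained it and 6 changed sign. The 2 members that rose became 1 with the replicate block (Sox11 adjusted p = 0.0252, Jun 0.0707), with median centring and at a threshold of 0.01, 3 (with Ecel1) with array weights, either filter on dim genes and without ipsilateral arrays 1 and 3, and 1 to 3 with single arrays left out. The count of members that fell, 0, became 1 (Basp1) with median centring, array weights, either filter on dim genes and without ipsilateral arrays 1 and 3 (chosen after seeing the data), and 0 to 1 with single arrays left out. Of the 5 lists, the 6 genes that rose became 0 at 0.01, 14 without ipsilateral arrays 1 and 3, and 3 to 13 with single arrays left out. The 17 that fell became 11 with the replicate block, 9 at 0.01, and 12 to 20 with single arrays left out. With the block, Dpysl3, Dpysl5, Fosl2, Jdp2, Jund, Klf13, Nefl and Tsc1 lost their calls. Their adjusted p in that limma fit ran from 0.0540 (Tsc1) to 0.113 (Dpysl5). Differences that changed sign were those of Klf7 (0.0273 with cyclic loess, -0.124 to 0.0060 with single arrays left out) and Stmn2 (-0.098 to 0.0685 with single arrays left out). The causes were not tested. Over all genes, the block called 177 higher and 769 lower. With single arrays left out, 111 to 760 of all genes were higher and 740 to 1607 lower. Without ipsilateral arrays 1 and 3, 1048 were higher and 1756 lower. Sprr1a was dimmer than every array's median and Atf3 was dim, which limits both.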
